A study of Mus musculus with 10 samples.

Results

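Basement membrane genes were followed in mouse femur, in aged and in young animals. The set held 31 of the 38962 genes of the count table, chosen by gene name: the chains of collagen IV, the other collagens of basement membranes, the laminin chains, the proteins that link or decorate these networks, and a few receptors and an enzyme that act on them. All 31 were in the table, and 31 passed the filter on low counts. The aged group was 5 male C57BL/6J mice of 22 months and the young group 5 male C57BL/6J mice of 2 months, and no transgene or treatment is named for either group. RNA came from the cortex of femurs that had been flushed of marrow and pulverized, and each of the 10 libraries came from 1 mouse. The aged mice came from an ageing colony of the NIA and the young mice from the Jackson Laboratory, so age and supplier cannot be told apart. In bulk tissue, fewer cells of a type and less RNA per cell cannot be told apart either.

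A basement membrane is a thin sheet of matrix that lies under epithelium and endothelium and around muscle fibres, fat cells and Schwann cells. A laminin network, bound to receptors on the cell, and a collagen IV network are held together by nidogens and by the proteoglycan perlecan. In bone such sheets surround the blood vessels and the muscle and nerve fibres attached to the shaft, while the mineralized matrix itself is built on collagen I.

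Each library held 31788232 to 45075335 counts in the aged group and 33447009 to 40395050 in the young group, and the noncoding RNA Gm26917 took 14.5% to 31.02% of them over the 10 libraries. The bone label fitted the libraries, since Col1a1, the main collagen of bone, averaged 17807 CPM in aged and 41575 CPM in young femurs. CPM, here and below, is the count of a gene scaled to a common library size by TMM, a scaling that sets the bulk of genes equal between libraries, and a gene is said to have risen or fallen where the edgeR quasi-likelihood test gave an adjusted p of at most 0.05. Of 22088 genes tested, 3.68% rose and 3.61% fell in aged femurs, 7.29% in either direction. The libraries labelled aged 4 and young 4 were most often the lowest of their group for these genes. Aged 4 was the lowest aged library for 23 of the 31 genes, 74.2% of them, against 26.5% of the tested genes, and young 4 was the lowest young library for 19, 61.3%, against 19.9% of the tested genes. The summed level of the 31 genes was 1274 CPM in aged 4 and 1715 to 1843 CPM in the other 4 aged libraries, against 1673 CPM in young 4 and 1912 to 2260 CPM in the other 4 young libraries.

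Of the 31 genes, 8 fell in aged femurs (Col4a1, Col4a2, Col15a1, Lamb1, Nid1, Nid2, Smoc2 and Pxdn), 3 rose (Col4a3, Col4a5 and Col7a1) and 20 did not pass the test. The share that fell was 25.8%, against 3.61% of all tested genes, and the share that rose was 9.68%, against 3.68%. The median log2 fold change of the 31 genes was 0.00, with 16 above 0 and 15 below, and that of all tested genes was 0.01. The 5 aged libraries lay wholly below the 5 young libraries for 8 genes, Hspg2 taking the place of Pxdn in the list of those that fell, where 4.12% of all tested genes did so. They lay wholly above for 1 gene, Col4a3, where 3.68% of all tested genes did so. Without aged 4, Pxdn and Col7a1 no longer passed (adjusted p = 0.0583 and 0.0676), and Lama2, Itgb4 and Lamc3 passed as higher. Without young 4, Smoc2 and Col7a1 no longer passed (adjusted p = 0.0944 and 0.0699), and Col18a1 passed as lower.

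**Figure D1:**
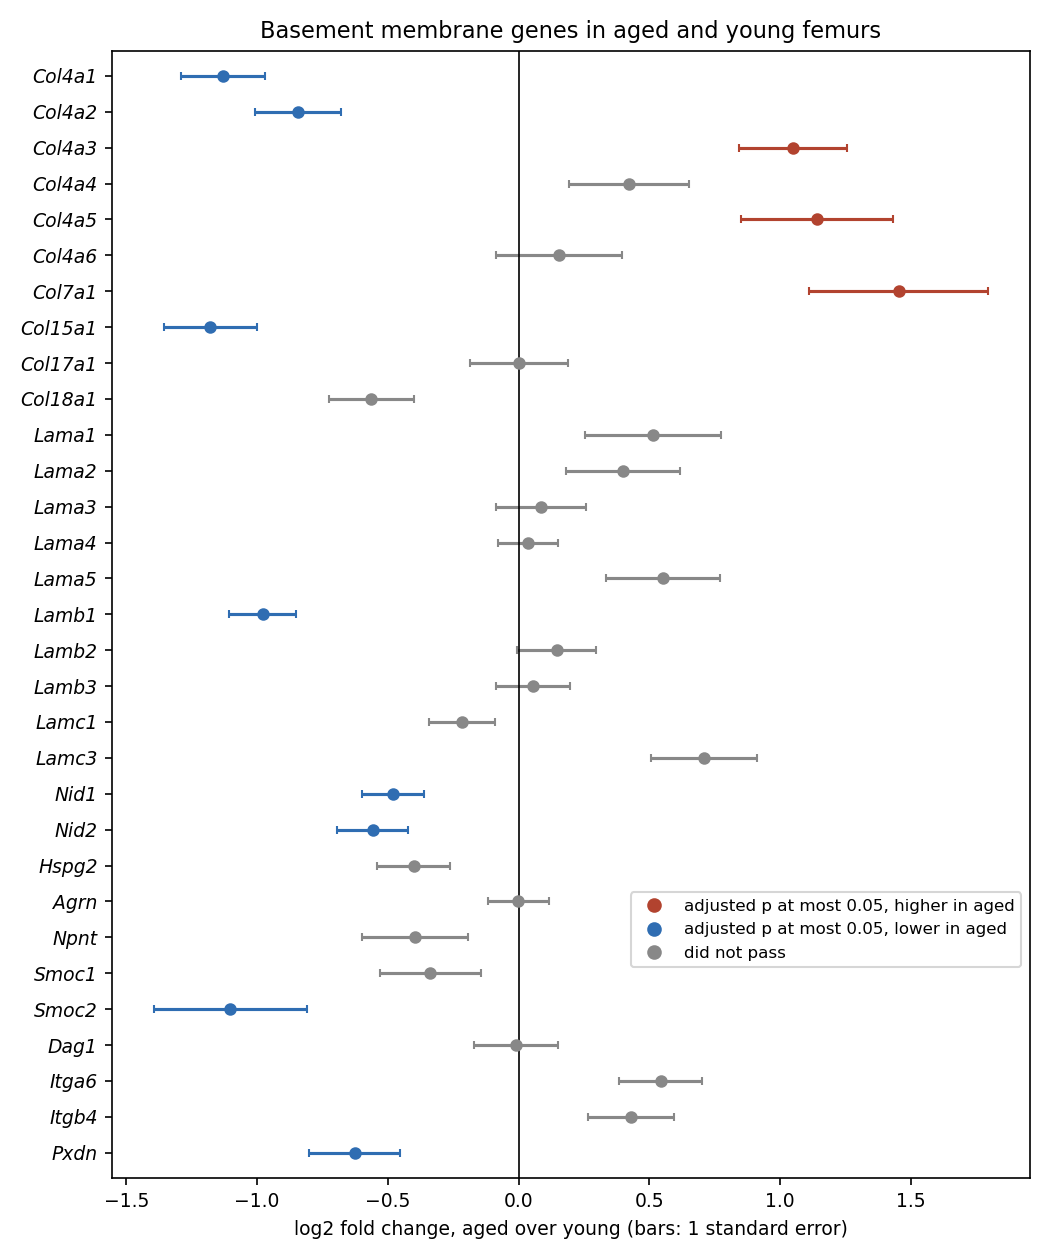
The log2 fold change of each of the 31 genes, aged over young, is drawn on the horizontal axis as a point with a bar of 1 standard error, grouped by role. Points right of 0 are higher in aged femurs. The 8 genes that fell lie between -1.18 and -0.48, and the 3 that rose lie between 1.05 and 1.45.

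The 6 collagen IV genes lie in the mouse genome as 3 head-to-head pairs, each pair read outward from a shared start region. The fold changes differed between pairs and, in places, within them, and the part of sequence in this was not tested. Sequence at, between or before the starts is shown (build GRCm38.p6, plus strand unless stated). Capitals mark the GC box GGGCGG, the motif CCAAT (the CCAAT box) or the motif TATAAA (the TATA box) on either strand. Col4a1, which starts at 11312826 on the minus strand of chromosome 8, and Col4a2, which starts at 11312805 on the plus strand, overlap by 22 bases at their first exons, a stretch of 72.7% GC with 1 GC box.
Col4a1 and Col4a2 overlap, chr8:11312805-11312826: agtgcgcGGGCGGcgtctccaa
Col4a4 and Col4a3 lie 71 bases apart on chromosome 1, and that stretch, 69.0% GC, holds none of the 3 motifs.
Col4a4 to Col4a3, chr1:82586850-82586920: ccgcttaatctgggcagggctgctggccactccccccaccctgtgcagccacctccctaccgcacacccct
Col4a6 and Col4a5 start 1308 bases apart on chromosome X. The 250 bases before Col4a6, on the minus strand, are 47.6% GC with 1 GC box, and the 216 bases before Col4a5 are 52.3% GC with 1 CCAAT box.
Col4a6 upstream, chrX:141474077-141474326, minus strand: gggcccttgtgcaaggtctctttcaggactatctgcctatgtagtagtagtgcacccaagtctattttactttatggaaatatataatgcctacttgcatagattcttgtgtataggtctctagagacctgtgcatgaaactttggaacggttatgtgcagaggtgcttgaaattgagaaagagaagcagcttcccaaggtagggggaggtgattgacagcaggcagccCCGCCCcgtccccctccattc
Col4a5 upstream, chrX:141475169-141475384, plus strand: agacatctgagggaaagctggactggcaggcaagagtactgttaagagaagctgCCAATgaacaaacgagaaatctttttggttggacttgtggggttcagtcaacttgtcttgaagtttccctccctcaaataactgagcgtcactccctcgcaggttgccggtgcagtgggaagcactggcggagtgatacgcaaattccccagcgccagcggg
RefSeq promoters (GRCm38.p6) matched 20 of the 31 genes, with 25 promoters among them. In the 250 bases before the start, 15 of the 25 held a GC box, 11 a CCAAT box and 1 a TATA box, and over 32851 mouse promoters the shares were 32.7%, 33.8% and 12.4%. These matches describe the letters only.

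The chains of the common collagen IV network fell. Col4a1 and Col4a2 encode the chains that nearly every basement membrane carries. Col4a1 (ENSMUSG00000031502.11, 8:11198423-11312826) was at 111.7, 127.2, 105.4, 71.5 and 109.7 CPM in the 5 aged femurs, against 248.9, 226.0, 290.5, 176.7 and 207.1 CPM in the 5 young femurs. Every aged library was below every young library, the lowest of each group being aged 4 and young 4. The means were 105 ± 20.5 CPM in aged and 229.8 ± 43.0 CPM in young femurs (SD, n = 5 each), 2.19-fold lower in aged femurs (log2 fold change -1.13, SE 0.16, adjusted p = 0.00137). Col4a2 (8:11312805-11449287) was at 98.7, 106.0, 101.8, 57.1 and 103.6 CPM in aged femurs, against 186.9, 164.8, 201.1, 134.9 and 150.4 CPM in young femurs. Again no aged library reached a young library. The means were 93.4 ± 20.5 CPM in aged and 168 ± 26.8 CPM in young femurs (SD, n = 5 each), 1.79-fold lower in aged femurs (log2 fold change -0.84, SE 0.16, adjusted p = 0.00899). Both genes passed the test under all 23 alternative settings. Without aged 4, the log2 fold changes were -1.02 for Col4a1 and -0.71 for Col4a2.

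The minor chains went the other way or did not pass the test. Col4a3, Col4a4 and Col4a5 encode the chains of the network known from the kidney glomerulus, the lung and the inner ear, and Col4a5 also pairs with Col4a6 around smooth muscle. Col4a3 (1:82586921-82722059) was at 2.1, 1.47, 2.43, 1.43 and 1.97 CPM in aged femurs, against 0.92, 1.01, 0.80, 0.73 and 1.04 CPM in young femurs. These low values did not overlap between the groups. The means were 1.88 ± 0.43 CPM in aged and 0.90 ± 0.13 CPM in young femurs (SD, n = 5 each), 2.07-fold higher in aged femurs (log2 fold change 1.05, SE 0.21, adjusted p = 0.0094), and the call held under all 23 settings. Col4a3 shares 563 exonic bases with the noncoding gene C430014B12Rik, whose mean count was 27.4% of that of Col4a3. The sources used here do not say whether counting used strand, so reads of the shared stretch are uncertain. Col4a5 (X:141475385-141689234) was at 5.12, 2.67, 4.55, 1.48 and 3.52 CPM in aged femurs, against 1.31, 1.16, 1.56, 1.98 and 1.77 CPM in young femurs. Aged 4 was within the young range, and the other 4 aged libraries were above it. Col4a5 was 2.21-fold higher in aged femurs (log2 fold change 1.14, SE 0.29, adjusted p = 0.0316). The call of Col4a5 was lost under 10 of the 23 settings (adjusted p 0.0541 to 0.102), among them scaling by total counts alone, a skeletal muscle covariate and the omission of aged 1, aged 3, aged 5, young 1, young 2 or young 3. Col4a4 was at 2.02 to 4.53 CPM in aged and 2.07 to 3.54 CPM in young femurs (log2 fold change 0.42, SE 0.23, adjusted p = 0.266). Col4a6 was at 1.08 to 2.15 CPM in aged and 1.01 to 1.73 CPM in young femurs (log2 fold change 0.16, SE 0.24, adjusted p = 0.722), and its sign turned under scaling by total counts alone (-0.05).

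**Figure D2:**
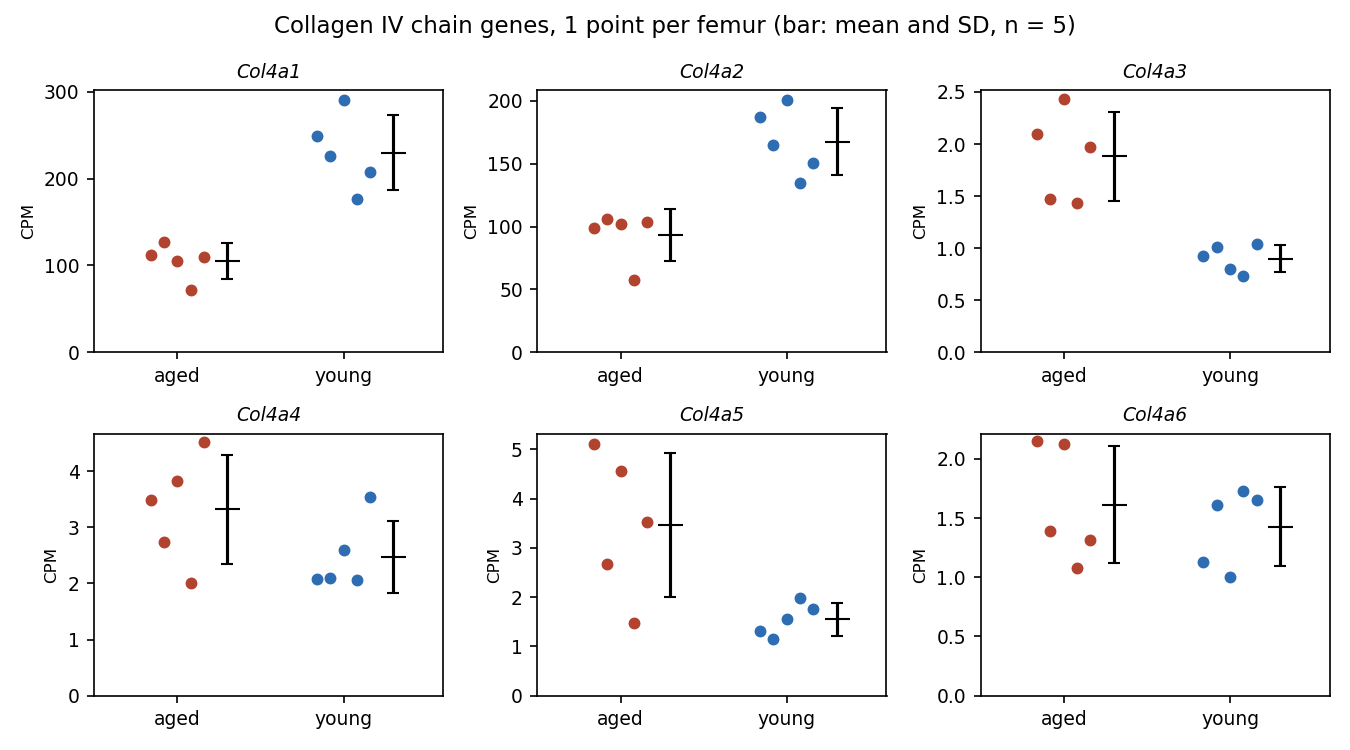
Levels of the 6 collagen IV genes are drawn per library in CPM, aged left and young right in each panel, with a bar at the mean and an error bar of 1 SD (n = 5 each). Col4a1 and Col4a2 lie lower in all 5 aged femurs, and Col4a3 lies higher in all 5, at 2.43 CPM or less.

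Per kilobase of gene length, the minor chains stayed far below the common ones in both groups. Col4a1 averaged 14.1 CPM per kilobase in aged and 30.8 in young femurs, and Col4a2 14.1 in aged and 25.3 in young femurs. Col4a3 averaged 0.189 CPM per kilobase in aged and 0.0902 in young femurs, the lowest of the 31 genes in both groups. As a share of the summed collagen IV level per kilobase, Col4a3, Col4a4 and Col4a5 took 0.655%, 1.06% and 1.72% in aged femurs, against 0.162%, 0.420% and 0.425% in young femurs. Col4a6, which did not pass the test, took 0.694% in aged and 0.331% in young femurs. Col4a1 took 48.1% in aged and 54.0% in young femurs, and Col4a2 47.8% in aged and 44.6% in young femurs. Since Col4a1 and Col4a2 made up most of the sum and fell, a larger share of a minor chain does not by itself show a higher level.

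Ratios taken within a library do not depend on the scaling between libraries, and 7 of them were compared by a two-sided exact permutation test of the library labels, with p adjusted over the 7. The log2 ratio of Col4a3 plus Col4a4 plus Col4a5 to Col4a1 plus Col4a2 per kilobase was -4.52, -5.36, -4.52, -5.04 and -4.72 in aged femurs, against -6.99, -6.87, -6.96, -6.29 and -6.17 in young femurs. The groups did not overlap, and aged 4 lay among the other aged libraries. The difference was 1.82 ± 0.24 (SE), 3.54-fold, with the smallest p that this test can give (exact permutation p = 0.00794, adjusted p = 0.0139). The log2 ratio of Col4a2 to Col4a1 averaged -0.01 ± 0.12 in aged and -0.28 ± 0.05 in young femurs (SD, n = 5 each), again with no overlap. Its difference was 0.27 ± 0.06 (SE), 1.21-fold (exact permutation p = 0.00794, adjusted p = 0.0139). These ratios use gene lengths as deposited. The calls of Col4a1, Col4a2, Col4a3 and Col4a5 enter the ratio of minor to common chains, which restates them on a scale free of library scaling. Col4a1 and Col4a2 both fell, so the ratio between them compares the sizes of their falls, from the same counts.

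The other collagens split as well. Col15a1 encodes type XV collagen, a chondroitin sulfate proteoglycan at the outer face of the basement membranes of vessels and muscle. Col15a1 (4:47208161-47313167) was at 30.4, 35.9, 24.1, 19.2 and 35.7 CPM in aged femurs, against 82.6, 65.2, 72.8, 55.8 and 53.2 CPM in young femurs. No aged library reached a young library. The means were 29.1 ± 7.32 CPM in aged and 65.9 ± 12.1 CPM in young femurs (SD, n = 5 each), 2.27-fold lower in aged femurs (log2 fold change -1.18, SE 0.18, adjusted p = 0.00228), and the call held under all 23 settings. Its relative Col18a1, whose product releases endostatin, was at 20.7, 24.8, 22.4, 16.3 and 25.8 CPM in aged femurs, against 34.8, 28.3, 43.8, 23.4 and 32.5 CPM in young femurs. The groups overlapped only through young 4. Col18a1 did not pass (log2 fold change -0.56, SE 0.16, adjusted p = 0.0523), and passed as lower under 8 of the 23 settings.

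Col7a1 encodes the collagen of the anchoring fibrils that hold skin epithelium to the dermis. Col7a1 (9:108953586-108984875) was at 18.8, 10.7, 46.6, 25.2 and 22.0 CPM in aged femurs, against 9.57, 6.95, 11.7, 5.89 and 10.9 CPM in young femurs. Aged 2 lay within the young range, and aged 3 was the highest library. The means were 24.7 ± 13.4 CPM in aged and 9.0 ± 2.5 CPM in young femurs (SD, n = 5 each), 2.74-fold higher in aged femurs (log2 fold change 1.45, SE 0.34, adjusted p = 0.0279). The call was lost under 7 of the 23 settings (adjusted p 0.0507 to 0.0850), among them a skeletal muscle covariate and the omission of aged 4, aged 5, young 1, young 2 or young 4. Col17a1, a transmembrane collagen of hemidesmosomes, was at 1.52 to 2.79 CPM in aged and 1.66 to 2.47 CPM in young femurs (adjusted p = 0.996). Of 10 epithelial markers, 5 passed the filter, and 1 of these (20%, against 3.68% of all tested genes), Trp63, rose (3.91 CPM in aged and 1.31 CPM in young femurs, adjusted p = 0.00234). All 5 had a log2 fold change above 0 (median 0.54), as did 11248 of the 22088 tested genes. The epithelial markers summed to 8.65 to 13.6 CPM in aged and 4.68 to 6.57 CPM in young femurs (exact permutation p = 0.00794, adjusted over 10 marker lists 0.0529), while the skin keratins Krt5 and Krt14 were at a median of 0 CPM in both groups. The part of epithelium in the Col7a1 result was not tested.

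**Figure D3:**
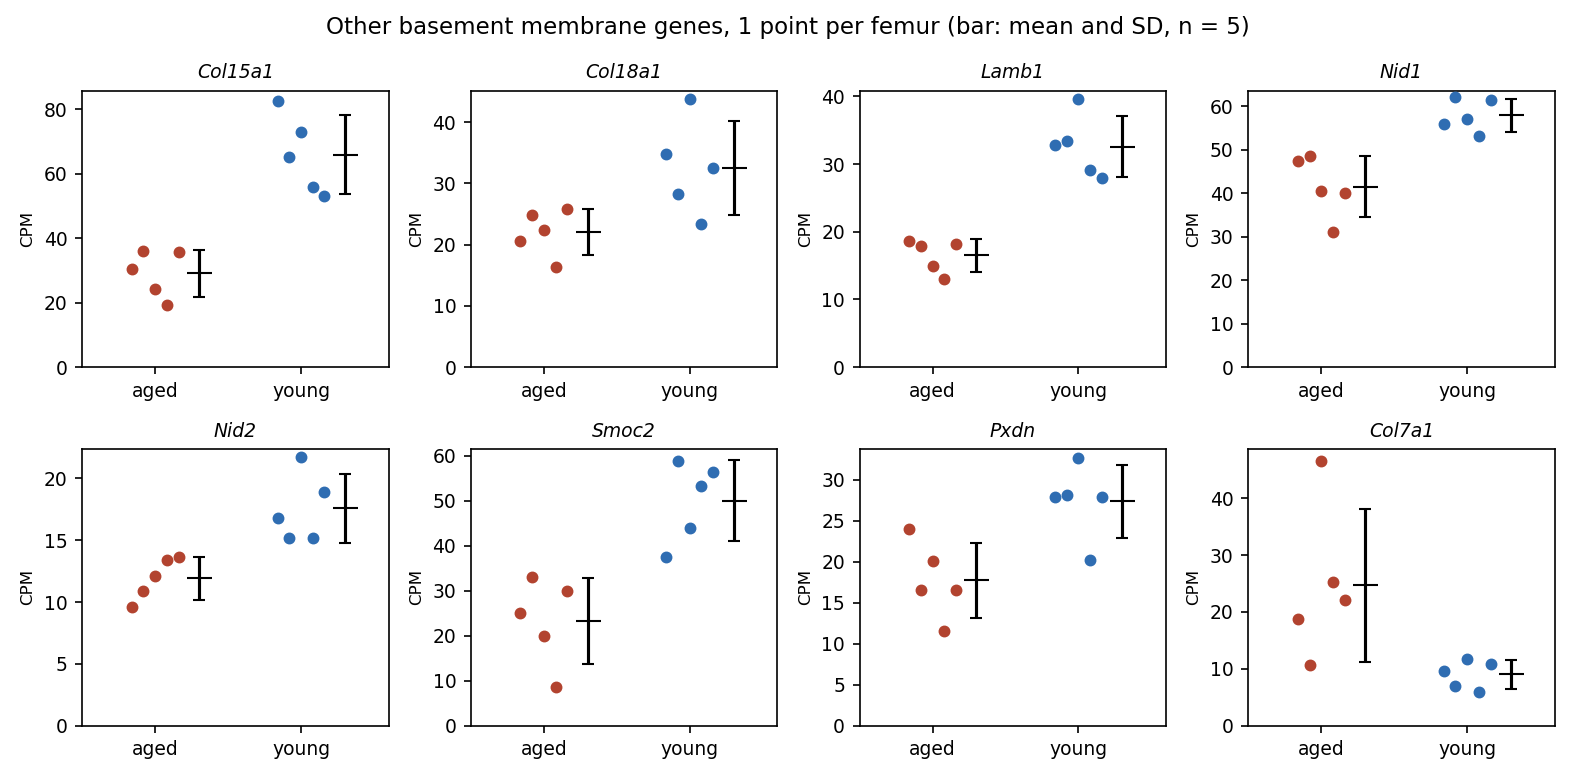
CPM per library is drawn for genes outside collagen IV, aged left and young right in each panel, with a bar at the mean and an error bar of 1 SD (n = 5 each). Aged and young points are apart for Col15a1, Lamb1, Nid1, Nid2 and Smoc2, and they overlap for Col18a1, Pxdn and Col7a1.

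Among the 10 laminin genes, 1 fell, none rose and 9 did not pass, counts near the 3.61% and 3.68% of all tested genes. A laminin is a trimer of an alpha, a beta and a gamma chain. Lamb1 encodes a beta chain of many laminins. Lamb1 (12:31265234-31329644) was at 18.7, 17.8, 14.9, 12.98 and 18.2 CPM in aged femurs, against 32.9, 33.5, 39.5, 29.1 and 27.9 CPM in young femurs. No aged library reached a young one. The means were 16.5 ± 2.48 CPM in aged and 32.6 ± 4.56 CPM in young femurs (SD, n = 5 each), 1.97-fold lower in aged femurs (log2 fold change -0.98, SE 0.13, adjusted p = 0.00078), and the call held under all 23 settings. Lamb2, the beta chain typical of muscle, synapses and vessels, averaged 141 ± 28.6 CPM in aged and 128 ± 17.3 CPM in young femurs (adjusted p = 0.574). The log2 ratio of Lamb1 to Lamb2 per kilobase was -3.73, -3.76, -4.09, -3.51 and -3.85 in aged femurs, against -2.65, -2.65, -2.52, -2.48 and -3.08 in young femurs. The groups did not overlap, young 5 lying nearest to the aged libraries. The difference was -1.11 ± 0.14 (SE; exact permutation p = 0.00794, adjusted p = 0.0139), and Lamb1 took 6.64% of the summed beta chain level per kilobase in aged and 13.3% in young femurs. Lamb3, a beta chain of epithelial laminin, was at 3.42 to 4.14 CPM in aged and 3.02 to 4.46 CPM in young femurs (adjusted p = 0.835).

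Lamc1 encodes the gamma chain of most laminins and Lamc3 a rarer gamma chain. Lamc1 averaged 90.4 ± 14.7 CPM in aged and 105 ± 10.9 CPM in young femurs (log2 fold change -0.22, adjusted p = 0.297). Lamc3 was at 22.3, 36.2, 23.5, 17.0 and 36.1 CPM in aged femurs, against 19.3, 18.3, 12.4, 15.3 and 17.3 CPM in young femurs. All aged libraries but aged 4 were above the young range, and Lamc3 did not pass over all 10 libraries (log2 fold change 0.71, SE 0.20, adjusted p = 0.0513). It passed as higher under 6 of the 23 settings, among them the omission of aged 4. The log2 ratio of Lamc3 to Lamc1 per kilobase was -1.73, -1.02, -1.54, -1.49 and -0.94 in aged femurs, against -2.04, -1.97, -2.82, -2.14 and -2.21 in young femurs. Within each library, Lamc3 was thus higher relative to Lamc1 in every aged femur than in any young one. The difference was 0.89 ± 0.22 (SE), 1.86-fold (exact permutation p = 0.00794, adjusted p = 0.0139), and Lamc3 took 28.5% of the summed gamma chain level per kilobase in aged and 17.7% in young femurs. Lamc3 shares 382 exonic bases with the noncoding gene Gm13441, whose mean count was 4.68% of that of Lamc3, so the reads of that stretch are uncertain.

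None of the 5 alpha chain genes passed. Lama5 and Lama4, the alpha chains of vessel walls, averaged 64.5 ± 19.9 CPM in aged and 43.9 ± 11.6 CPM in young femurs for Lama5 (log2 fold change 0.55, SE 0.22, adjusted p = 0.139), and 56.9 ± 9.0 CPM in aged and 55.5 ± 3.55 CPM in young femurs for Lama4 (adjusted p = 0.875). Lama5 passed as higher with an endothelial or a leukocyte covariate. Lama4 to Lama5 as a log2 ratio ran from -0.80 to 0.37 in aged and from -0.18 to 0.61 in young femurs, and its difference of -0.52 ± 0.25 (SE) did not pass (exact permutation p = 0.0794, adjusted p = 0.111), though it passed without aged 2 (difference -0.67, adjusted p = 0.0444 by the same exact permutation test). Lama2, the alpha chain of muscle and peripheral nerve, was at 105.1, 75.7, 87.9, 40.1 and 78.2 CPM in aged femurs, against 59.6, 62.3, 58.3, 41.5 and 71.6 CPM in young femurs. All aged libraries but aged 4 were above the young range, and Lama2 passed as higher without aged 4 (adjusted p = 0.0344) but not with it (log2 fold change 0.40, SE 0.22, adjusted p = 0.270). Lama3, an alpha chain of epithelial laminin, was at 8.20 to 16.7 CPM in aged and 9.95 to 13.2 CPM in young femurs (adjusted p = 0.785). Lama1, the alpha chain of the early embryo, was at 1.90 to 2.61 CPM in 4 aged femurs and 5.2 CPM in aged 4, against 1.52 to 2.31 CPM in young femurs (adjusted p = 0.232). Per kilobase, Lama5 took 34.3% of the summed alpha chain level in aged and 28.7% in young femurs, and Lama4 took 29.0% in aged and 35.0% in young femurs.

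**Figure D4:**
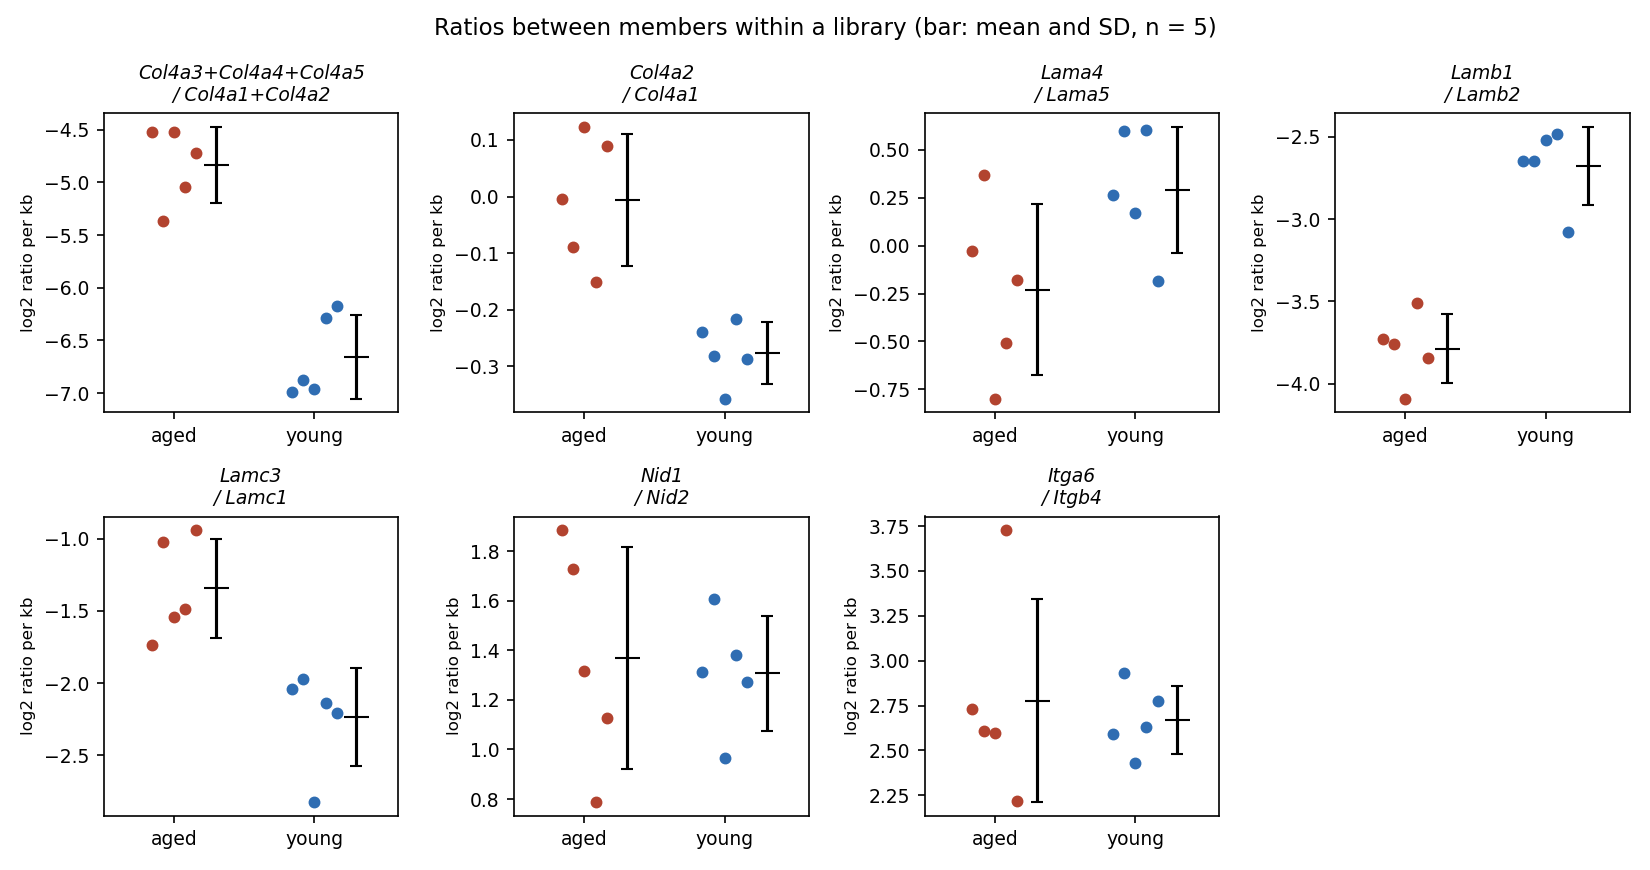
Ratios of chains within each library are drawn on a log2 scale per kilobase of gene length, aged left and young right in each panel, with a bar at the mean and an error bar of 1 SD (n = 5 each). Of the 7 ratios, 4 do not overlap between the groups: the minor to the common collagen IV chains, Col4a2 to Col4a1, Lamb1 to Lamb2 and Lamc3 to Lamc1.

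Among the 7 genes of linkers and proteoglycans, 3 fell (42.9%, against 3.61% of all tested genes) and none rose (3.68% of all tested genes). All 7 had a log2 fold change below 0, that of Agrn rounding to 0, as did 10840 of the 22088 tested genes. The nidogens bridge the laminin and the collagen IV networks. Nid1 (13:13437551-13512269) was at 47.4, 48.5, 40.5, 31.1 and 40.0 CPM in aged femurs, against 56.0, 62.1, 57.0, 53.1 and 61.4 CPM in young femurs. Nid2 (14:19751265-19811787) was at 9.56, 10.9, 12.1, 13.4 and 13.7 CPM in aged femurs, against 16.8, 15.2, 21.8, 15.2 and 18.9 CPM in young femurs. For each nidogen every aged femur was below every young one. Nid1 was 1.40-fold lower (log2 fold change -0.48, SE 0.12, adjusted p = 0.0266) and Nid2 1.47-fold lower in aged femurs (log2 fold change -0.56, SE 0.13, adjusted p = 0.0250). The call of Nid1 was lost without aged 3, aged 5 or young 2 (adjusted p 0.0555 to 0.0762), and that of Nid2 without aged 3 or young 3 (adjusted p 0.0504 to 0.0566). Between aged and young femurs, the log2 ratio of Nid1 to Nid2 differed by 0.06 ± 0.22 (SE; exact permutation p = 0.794, adjusted p = 0.833), with the groups overlapping. Nid2 shares 437 exonic bases with the neighbouring gene Rtraf, whose mean count of 912.7 was above the 573.5 of Nid2, so the reads of that stretch are uncertain.

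Hspg2 encodes perlecan, the heparan sulfate proteoglycan that binds laminin, nidogen and collagen IV. Hspg2 had the highest level per kilobase of the 31 genes in both groups, 29.3 CPM per kilobase in aged and 38.7 in young femurs. It was at 426, 461, 479, 318 and 477 CPM in aged femurs, against 577, 509, 635, 481 and 653 CPM in young femurs. Although the groups did not overlap, Hspg2 did not pass (log2 fold change -0.40, SE 0.14, adjusted p = 0.0932), and it passed as lower with DESeq2 and with a muscle or an endothelial covariate. Smoc2 encodes a secreted calcium-binding protein of the matrix. Smoc2 (17:14279506-14404790) was at 25.0, 33.0, 20.002, 8.51 and 29.9 CPM in aged femurs, against 37.4, 58.7, 43.9, 53.3 and 56.5 CPM in young femurs. The lowest library was aged 4, and the groups did not overlap. Smoc2 was 2.15-fold lower in aged femurs (log2 fold change -1.10, SE 0.29, adjusted p = 0.0448), a call lost under 12 of the 23 settings (adjusted p 0.0505 to 0.127), among them the omission of aged 1, aged 3, aged 5 or any of the young libraries. Without aged 4 its log2 fold change was -0.89 and it passed. Its relative Smoc1 was at 4.12 to 6.80 CPM in aged and 5.13 to 9.64 CPM in young femurs (adjusted p = 0.289). Npnt, whose product nephronectin is an integrin ligand, was at 8.53 to 20.5 CPM in aged and 15.9 to 25.8 CPM in young femurs (log2 fold change -0.40, adjusted p = 0.235). Agrn, whose product agrin binds laminin and organizes the nerve-muscle synapse, averaged 89.7 ± 11.97 CPM in aged and 89.7 ± 11.5 CPM in young femurs (adjusted p = 0.996).

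Pxdn encodes peroxidasin, the enzyme that crosslinks collagen IV. Pxdn (12:29937608-30017658) was at 24.0, 16.6, 20.1, 11.6 and 16.5 CPM in aged femurs, against 28.0, 28.1, 32.7, 20.2 and 27.9 CPM in young femurs. Young 4 lay among the aged libraries, and the other 4 young libraries lay above them. Pxdn was 1.54-fold lower in aged femurs (log2 fold change -0.63, SE 0.17, adjusted p = 0.0454), and the call was lost when aged 2, aged 3, aged 4, aged 5, young 1, young 2, young 3 or young 5 was left out (adjusted p 0.0583 to 0.108). The 3 receptor genes did not pass. Itga6, a subunit of laminin-binding integrins, was at 121.8, 122.4, 134.9, 174.4 and 98.6 CPM in aged femurs, against 92.0, 79.6, 82.8, 74.3 and 118.7 CPM in young femurs. Aged 5 and young 5 were the libraries that crossed, and Itga6 missed the threshold (log2 fold change 0.54, SE 0.16, adjusted p = 0.0519), passing as higher without either of them. Itgb4, its partner in hemidesmosomes, was at 10.1 to 17.1 CPM in aged and 8.01 to 13.3 CPM in young femurs (log2 fold change 0.43, SE 0.17, adjusted p = 0.124), and it passed without aged 4 (adjusted p = 0.0421). The log2 ratio of Itga6 to Itgb4 differed by 0.11 ± 0.27 (SE; exact permutation p = 0.833, adjusted p = 0.833). Dag1, whose product dystroglycan binds laminin on muscle and nerve, averaged 102 ± 21.6 CPM in aged and 103 ± 17.8 CPM in young femurs (adjusted p = 0.974).

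**Figure D5:**
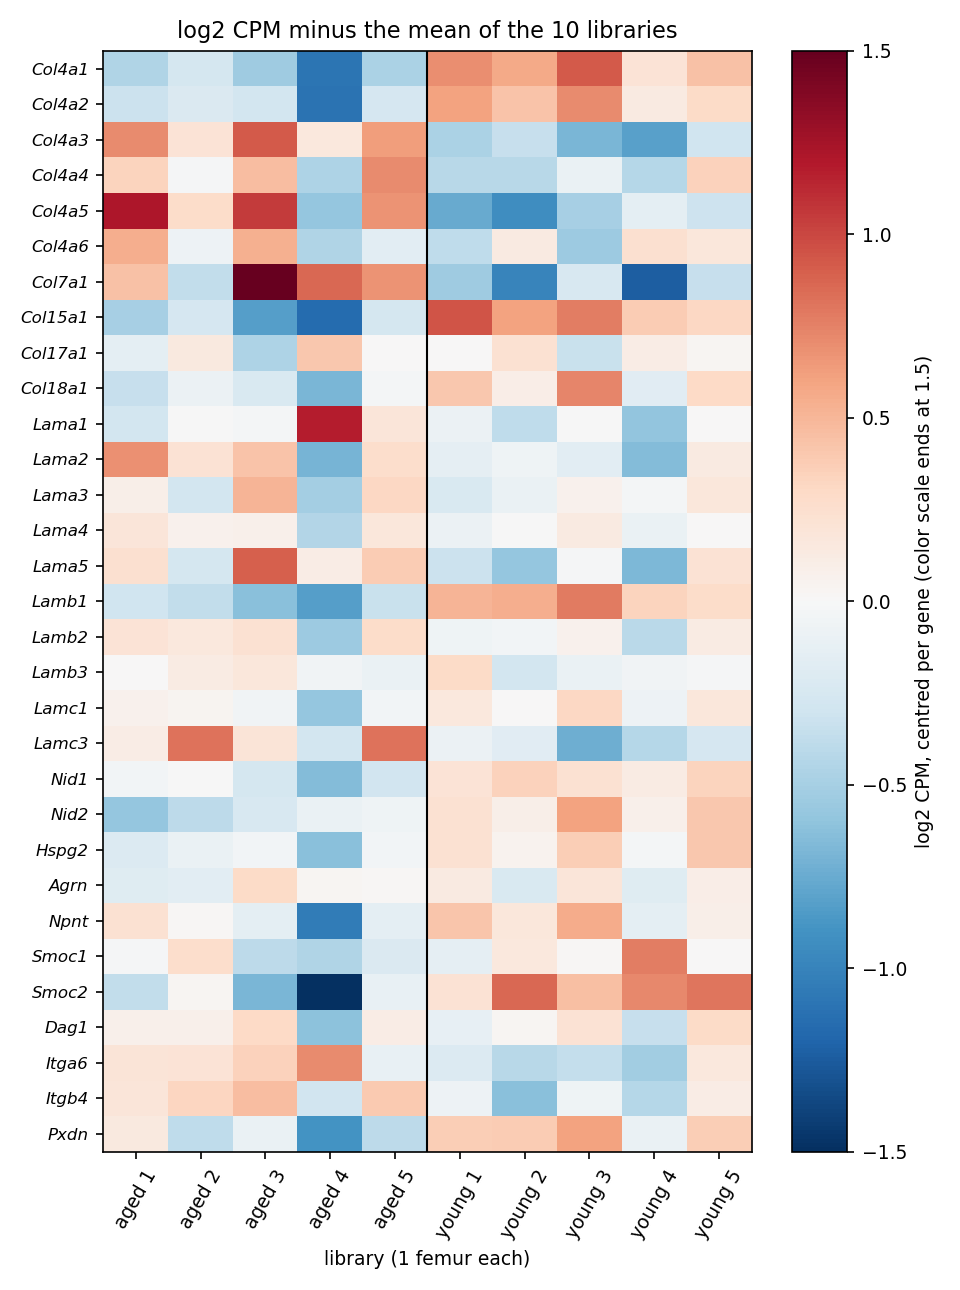
For each of the 31 genes (rows, grouped by role) and each of the 10 libraries (columns, aged left, young right), the colour gives log2 CPM minus the mean of that gene over all 10 libraries, with the scale ending at 1.5 in either direction. Within its own group, aged 4 was lowest of the aged libraries for 23 genes and young 4 lowest of the young ones for 19.

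Genes whose products act with these 31 were read from 3 lists. Of 14 genes that make or crosslink collagens such as collagen IV, 5 fell (35.7%, against 3.61% of all tested genes), none rose (3.68% of all tested genes) and 9 did not pass, with a median log2 fold change of -0.39 against 0.01 over all tested genes. Loxl2, a lysyl oxidase that crosslinks collagen IV, averaged 14.3 CPM in aged and 74.7 CPM in young femurs (log2 fold change -2.38, adjusted p = 0.00014). P4ha3, a prolyl hydroxylase subunit, fell by 2.03 on the log2 scale (adjusted p = 0.00023), and P3h1, which hydroxylates prolines of collagens, averaged 22.8 CPM in aged and 37.4 CPM in young femurs (log2 fold change -0.71, adjusted p = 0.00666). These enzymes also act on the fibrillar collagens of bone. Of 19 other basement membrane matrix genes tested, 5 fell (26.3%, against 3.61% of all tested genes), 1 rose (5.26%, a share near the 3.68% of all tested genes) and 13 did not pass (median -0.11). Matn2, a matrilin, averaged 6.30 CPM in aged and 14.3 CPM in young femurs (log2 fold change -1.18, adjusted p = 0.00056). Fras1, known from the epidermal basement membrane of the embryo, averaged 8.42 CPM in aged and 15.8 CPM in young femurs (log2 fold change -0.92, adjusted p = 0.00496). Sparc, a collagen-binding protein abundant in bone, fell by 1.54 on the log2 scale (adjusted p = 0.0121), and Efemp1, a fibulin, averaged 2.02 CPM in aged and 0.83 CPM in young femurs (log2 fold change 1.28, adjusted p = 0.0230). Of 16 receptors and anchors, 3 rose (18.8%, against 3.68% of all tested genes), none fell, which is near the 3.61% of all tested genes, and 13 did not pass (median 0.30). Utrn, whose product utrophin ties dystroglycan to actin, averaged 455 ± 50.9 CPM in aged and 320.2 ± 45.6 CPM in young femurs (log2 fold change 0.51, adjusted p = 0.0282). Bcam, a receptor for Lama5-containing laminins, averaged 25.9 CPM in aged and 14.2 CPM in young femurs (log2 fold change 0.87, adjusted p = 0.0337), and Plec, whose product plectin links receptors to the cytoskeleton, averaged 1593 CPM in aged and 977 CPM in young femurs (log2 fold change 0.71, adjusted p = 0.0430).

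Markers of the cells that carry or make basement membranes were read beside these results. Of 16 endothelial markers, 1 fell, Emcn (log2 fold change -0.60, adjusted p = 0.0284), and none rose, counts near the 3.61% and 3.68% of all tested genes. Their summed level was 759 to 969 CPM in aged and 598 to 954 CPM in young femurs (exact permutation p = 0.175). Vwf made up the largest part of it, at means of 357 CPM in aged and 242 CPM in young femurs (adjusted p = 0.166). With endothelial markers as covariate, Col4a1 was at a log2 fold change of -1.13, Col4a2 at -0.85, Col15a1 at -1.18 and Lamb1 at -0.98, and all 4 passed, while Smoc2 no longer did (adjusted p = 0.0534). Since the median log2 fold change of these markers was 0.03, such a covariate could move the age difference only little. The part of endothelium in the genes that fell was not tested. Of 10 pericyte and smooth muscle markers none passed, and their sum was 412 CPM in aged 4 and 605 to 712 CPM in the other 4 aged libraries, against 528 to 703 CPM in young femurs (exact permutation p = 0.889). Of 15 skeletal muscle markers tested none passed, although 14 had a log2 fold change above 0 (median 0.49). Their sum was 16066 to 42209 CPM in aged and 10144 to 31836 CPM in young femurs, lowest in aged 4 and young 4 (exact permutation p = 0.190). With muscle markers as covariate, Col4a5, Col7a1 and Smoc2 no longer passed. Of 9 Schwann cell markers tested none passed (median log2 fold change 0.40, 7 above 0). None of 7 fat cell markers tested passed either (median 0.56, all 7 above 0). Osteoblast and osteocyte markers fell for 5 of 12 (41.7%, against 3.61% of all tested genes), with sums of 18579 to 45719 CPM in aged and 43093 to 91179 CPM in young femurs (exact permutation p = 0.0159, adjusted over 10 marker lists 0.0529). These sums were mostly Col1a1 and Col1a2, at means of 17807 and 8547 CPM in aged and 41575 and 21056.5 CPM in young femurs. The 7 that did not pass included Runx2 (adjusted p = 0.506), Sp7 (0.361), Dmp1 (0.579) and Sost (0.557), and Sost alone had a log2 fold change above 0. Cartilage markers fell for 6 of 11 tested (54.5%, against 3.61%), with sums of 413 to 949 CPM in aged and 745 to 2266 CPM in young femurs (exact permutation p = 0.0159, adjusted p = 0.0529). Col11a1 averaged 183 CPM in aged and 790 CPM in young femurs. The cartilage markers differed among themselves: Acan was at 1.52 to 10.51 CPM in aged and 21.4 to 67.8 CPM in young femurs, while Col2a1, the main cartilage collagen, was at 174 to 539 CPM in aged and 138 to 886 CPM in young femurs (adjusted p = 0.445). Neither Comp (adjusted p = 0.744) nor Sox9 (adjusted p = 0.497) passed, and none of these 4 markers was at 0. The part of bone-forming and cartilage cells in the genes that fell was not tested. Leukocyte markers summed to 1821 to 5526 CPM in aged and 2272 to 3240 CPM in young femurs. Of 13 such markers 1 rose, Cd3e (7.69%), a count near the 3.68% of all tested genes. Of 8 red cell precursor markers none passed.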

How the data were processed

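RNA of flushed femur was sequenced from 5 aged and 5 young mice. The authors deposited raw counts of reads per gene, made, per the study's methods, from paired reads of RNA depleted of ribosomal RNA and selected for poly-A, with Cutadapt, STAR (GRCm38.p6) and featureCounts. The labels name a human build, but the identifiers are mouse, and all 31 genes have the start and end of GENCODE vM21. The sources used here do not say whether counting used strand.

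In R 4.3.3, edgeR 4.0.16 filtered genes (minimum count 10, minimum total 15), scaled libraries by TMM, and compared aged with young femurs by a robust quasi-likelihood test, adjusted by Benjamini-Hochberg over 22088 genes. The SE came from the F statistic and the log2 fold change, and the median SE of the tested genes was 0.178. CPM per kilobase used the gene length deposited by the authors. Ratios and marker sums were compared by exact permutation of the libraries, two-sided, with 0.00794 as the smallest p. Alternatives were other scalings and filters, DESeq2 1.42.0, limma-voom (limma 3.58.1), omission of each library, a replicate block, and marker levels as covariates. The steps were tested on simulated data. Motifs were searched in RefSeq promoters with Python 3.11.15. All 31 genes could be named, and of each partner list the 3 genes of smallest p per direction among those called. The genes and lists were chosen with earlier results of these data known.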

Additional observations from a re-analysis of the deposited data

Results flagged for a closer look

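A library was singled out where its gap to the nearest of its 5-sample group was more than 0.71 of the group's range. Of 76 groups screened, 8 met this, and chance gives about 1 in 20. The library aged 4 accounted for 5 of them: it was low for Col4a2 (57.1 CPM), Lama4 (41.3 CPM), Lamb2 (90.7 CPM) and Lamc1 (64.8 CPM), and high for Lama1 (5.203 CPM). Young 4 was high for Smoc1 (9.64 CPM). Young 5 was low in the log2 ratio of Lamb1 to Lamb2 (-3.08), the value nearest to the aged libraries. Young 3 was low in the log2 ratio of Lamc3 to Lamc1 (-2.82), the value farthest from the aged libraries.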

How the results depend on the processing

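The calls of Col4a1, Col4a2, Col4a3, Col15a1 and Lamb1 held under all 23 alternatives. Of all tested genes, 812 rose and 798 fell, and the number that rose was 285 with total counts alone, 1545 with DESeq2, 1311 with the endothelial covariate, 1598 with the leukocyte covariate, 174 at an adjusted p of 0.01, and 300 to 856 with a library left out. The number that fell was 1237 with DESeq2, 1271 with the leukocyte covariate, 249 at 0.01, and 386 to 830 with a library left out. Of the 31 genes, 3 rose and 8 fell: 5 rose with DESeq2, 1 with the muscle, 5 with the endothelial and 6 with the leukocyte covariate, 1 at 0.01 and 1 to 5 with a library left out, while 4 fell at 0.01 and 4 to 8 with a library left out. Total counts alone shifted the median log2 fold change of all genes to -0.16, and turned the sign of uncalled genes: Col4a6 -0.049, Col17a1 -0.17, Lama3 -0.11, Lama4 -0.13, Lamb2 -0.020 and Lamb3 -0.11. With the muscle covariate, Lama3 (-0.11), Lama4 (-0.067) and Lamb2 (-0.033) turned. Col17a1, at 0.00, was -0.0021 with upper quartile scaling, -0.0019 with no filter, -0.0023 with a minimum count of 50, -0.0043 with limma-voom and -0.067 with the leukocyte covariate. Agrn was 0.0074 with RLE scaling, 0.0050 with DESeq2 and 0.027 with the leukocyte covariate, under which Dag1 was 0.030. With a library left out, the log2 fold changes ran from -0.11 to 0.10 for Col17a1, -0.044 to 0.20 for Lama3, -0.0047 to 0.13 for Lama4, -0.0029 to 0.15 for Lamb3, -0.077 to 0.044 for Agrn and -0.091 to 0.11 for Dag1, and the log2 ratio differences from -0.068 to 0.21 for Nid1 to Nid2, -0.67 to -0.38 for Lama4 to Lama5 (which passed without aged 2, adjusted p = 0.0444) and -0.13 to 0.25 for Itga6 to Itgb4. The cause of these moves was not tested. Same-numbered aged and young libraries deviated together with correlations of -0.154 to 0.169, and none of the aged libraries correlated best with its own number, so the numbers do not pair them. With the replicate block, 957 genes rose and 675 fell, Col17a1 was -0.014, Col4a5 lost its call and Col18a1, Lama5 and Lamc3 gained one. For the ratios, the differences of 1.82, 0.27, -1.11 and 0.89 are the same with the block by arithmetic, whatever the pairing. Their sign-flip test, whose smallest p is 0.0625, could not pass. Among the collagen IV chains of low depth, Col4a3 rested on a mean of 53 counts and Col4a6 on 59.1 counts a library.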
